A study of Mus musculus with 8 samples.

Results

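The chemokine receptor gene Cxcr4 and 9 of its neighbors on mouse chromosome 1 (Dars, Lct, Ubxn4, R3hdm1, Zranb3, Rab3gap1, Ccnt2, Acmsd and Thsd7b) were followed through bone marrow mesenchymal stem/progenitor cells (MSPCs) of mice whose blood progenitors keep or lose CXCR4. The 10 genes were chosen by position, as genes flanking the floxed Cxcr4 locus, and are 10 of the 52636 genes in the count table. RNA was sequenced from the MSPCs of 8 single mice on the C57BL/6 background, 4 with the genotype Flk2-cre+ Cxcr4fl/+ (CTL) and 4 with Flk2-cre+ Cxcr4fl/fl (cKO). Both groups therefore carry the Flk2-cre transgene and at least 1 floxed Cxcr4 allele, and no library without Cre or without a floxed allele was analysed here. The floxed allele is on 1 chromosome copy in CTL and on both in cKO. For genes near Cxcr4, this difference and the loss of CXCR4 in blood progenitors cannot be told apart. Cre driven from Flk2 (also named Flt3) is described by the study as acting in multipotent progenitors and the blood cells that descend from them, so the sorted stromal cells are not the cells in which Cxcr4 is deleted. The cells were CD45- Ter119- CD31- CD144- PDGFRα+ SCF-GFP+, that is, without blood and endothelial surface markers and positive for PDGFRα and for GFP from the gene of the cytokine SCF. Sorting on this GFP means that the mice also carried a GFP allele of that gene, Kitl, which the genotypes above do not name. In the study, cKO mice heterozygous for this allele had hematopoietic stem cell numbers back at physiological levels. The labels give the age of all mice as 6 weeks, whereas the methods give a wider range of older ages. The libraries held between 31047344 and 38216877 counts, and the marker genes of MSPCs were high in all of them (Lepr at a mean of 4420 CPM, the counts scaled to a common library size).

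CXCR4 is the receptor of the chemokine CXCL12, which MSPCs make in large amounts and which holds hematopoietic stem and progenitor cells in the marrow. The receptor signals through inhibitory G proteins, and receptor kinases, arrestins and ubiquitin-dependent sorting turn it off. Its chromosomal neighbors have unrelated tasks. Dars encodes the aspartyl-tRNA synthetase of the cytosol, Ubxn4 a membrane protein of the endoplasmic reticulum that helps to degrade misfolded proteins, Rab3gap1 the catalytic subunit of a regulator of Rab GTPases in membrane traffic, and Ccnt2 a cyclin of the kinase complex that releases paused RNA polymerase. Zranb3 encodes a DNA translocase that remodels stalled replication forks, and R3hdm1 a protein with an R3H domain. Lct encodes lactase of the small intestine, Acmsd an enzyme of tryptophan breakdown found mainly in kidney and liver, and Thsd7b a membrane protein with thrombospondin repeats. In people the block that holds LCT and its neighbor MCM6 is known for lactase persistence.

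Cxcr4 lies at chr1:128588199-128592293 on the minus strand (GRCm38). Of the other 9 genes, 8 lie on the 3′ side of Cxcr4, with starts between 175 kb (Dars) and 863 kb (Acmsd) away, and Thsd7b lies on the 5′ side, with its start at a distance of 681 kb. The upstream sequences of 4 genes are shown because they cover the range of levels described below: the shared stretch between Zranb3 and R3hdm1, the nearly silent but CpG-rich promoter of Cxcr4, that of the highly expressed Dars, and that of Lct, for which no count was found. The 250 bases before each RefSeq start (GRCm38.p6) are given 5′ to 3′ on the strand of the gene, and capitals mark the motifs GGGCGG (the GC box), CCAAT and TATAAA on either strand, so that CCAAT read on the other strand appears as ATTGG and GGGCGG as CCGCCC.
R3hdm1 (chr1:128103056-128103305, plus strand): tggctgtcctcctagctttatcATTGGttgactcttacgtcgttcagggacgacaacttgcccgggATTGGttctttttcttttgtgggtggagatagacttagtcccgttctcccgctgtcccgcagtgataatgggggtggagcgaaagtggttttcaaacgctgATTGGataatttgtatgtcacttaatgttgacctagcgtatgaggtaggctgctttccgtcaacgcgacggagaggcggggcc
Cxcr4 (chr1:128592300-128592549, minus strand): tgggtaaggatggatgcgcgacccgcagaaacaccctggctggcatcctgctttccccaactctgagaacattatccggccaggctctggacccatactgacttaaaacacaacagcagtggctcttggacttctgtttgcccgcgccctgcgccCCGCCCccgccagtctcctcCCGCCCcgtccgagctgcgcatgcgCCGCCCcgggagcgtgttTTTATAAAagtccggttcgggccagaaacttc
Dars (chr1:128417417-128417666, minus strand): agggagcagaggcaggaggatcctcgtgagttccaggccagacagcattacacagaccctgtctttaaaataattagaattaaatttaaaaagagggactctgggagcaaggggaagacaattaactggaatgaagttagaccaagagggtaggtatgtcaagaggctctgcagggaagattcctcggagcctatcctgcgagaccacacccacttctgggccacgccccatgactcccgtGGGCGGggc
Lct (chr1:128328319-128328568, minus strand): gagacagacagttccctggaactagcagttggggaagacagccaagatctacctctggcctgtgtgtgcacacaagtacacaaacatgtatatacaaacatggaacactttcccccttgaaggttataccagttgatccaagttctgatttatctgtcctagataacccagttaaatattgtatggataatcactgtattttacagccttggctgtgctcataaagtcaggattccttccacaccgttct
The R3hdm1 sequence holds 3 matches to CCAAT, all on the strand opposite to the gene. The Cxcr4 sequence holds 3 GC boxes, likewise on the strand opposite to the gene, and a pair of TATAAA matches that overlap each other on opposite strands just before the start. The Dars sequence has 1 GC box, and the Lct sequence has none of the 3 motifs and 1 CpG. These are matches of letters, and binding of a factor was not measured.

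Cxcr4 was close to the limit of detection in MSPCs of both genotypes. It had 19, 14, 13 and 4 counts in the libraries CTL1 to CTL4 and 12, 7, 11 and 0 counts in cKO1 to cKO4. The genotypes overlapped, and the lowest library of each was that of replicate 4. In total there were 50 counts in CTL and 30 in cKO, which corresponds to 0.388 ± 0.210 CPM (SD, n = 4) and 0.225 ± 0.167 CPM. The log2 fold change of cKO over CTL was -0.78, with a standard error of 1.19 and a 95% interval from -3.43 to 1.88 (adjusted p = 1.00, quasi-likelihood test of edgeR, Benjamini-Hochberg adjusted over all genes tested). Expressed as a fold, the interval spans 0.0929 to 3.67, so that neither a strong loss nor a gain of Cxcr4 can be told from these counts. Because Cre is not described as acting in these cells, Cxcr4 here does not check the genotype labels. A count of 0 in cKO4 allows up to 3 counts, or 0.0783 CPM, and this limit covers counting error only. Flt3, whose regulatory sequence drives Cre, was likewise low, with 15 to 64 counts in CTL and 11 to 81 in cKO.

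Since the study describes blood cells as using CXCR4 to reach the marrow, the blood markers were set beside Cxcr4. CD45 (Ptprc), the surface marker used to exclude blood cells, had 0, 8, 0 and 21 counts in CTL1 to CTL4 and 32, 3, 0 and 0 in cKO1 to cKO4. Cd3e, which defines T cells, was at 0 in all 8 libraries, and 30 of the 32 blood markers listed had a count in at least 1 library. Their summed level lay between 94.9 and 393 CPM in CTL and between 201 and 331 CPM in cKO. The highest means in this sum were those of the red cell hemoglobin genes Hbb-bs (64.7 CPM) and Hba-a1 (39.4 CPM). The sum is therefore not a measure of white blood cells alone. The 6 of 7 endothelial markers with a count summed to between 5.06 and 14.1 CPM in CTL and 5.32 to 8.94 CPM in cKO, with Tek at 0 throughout. CTL4 had both the lowest blood marker sum and the lowest Cxcr4 count of the CTL libraries, whereas CTL3 had the highest sum, with the antibody genes Igha at 91.1 CPM and Igkc at 84.3 CPM, and a Cxcr4 count of 13. In cKO4, Cxcr4 and Ptprc were both listed at 0 while the blood marker sum was 201 CPM. The part of remaining blood cells in the Cxcr4 counts was not tested, and in such bulk samples fewer cells of a type and less RNA per cell cannot be told apart.

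**Figure D1:**
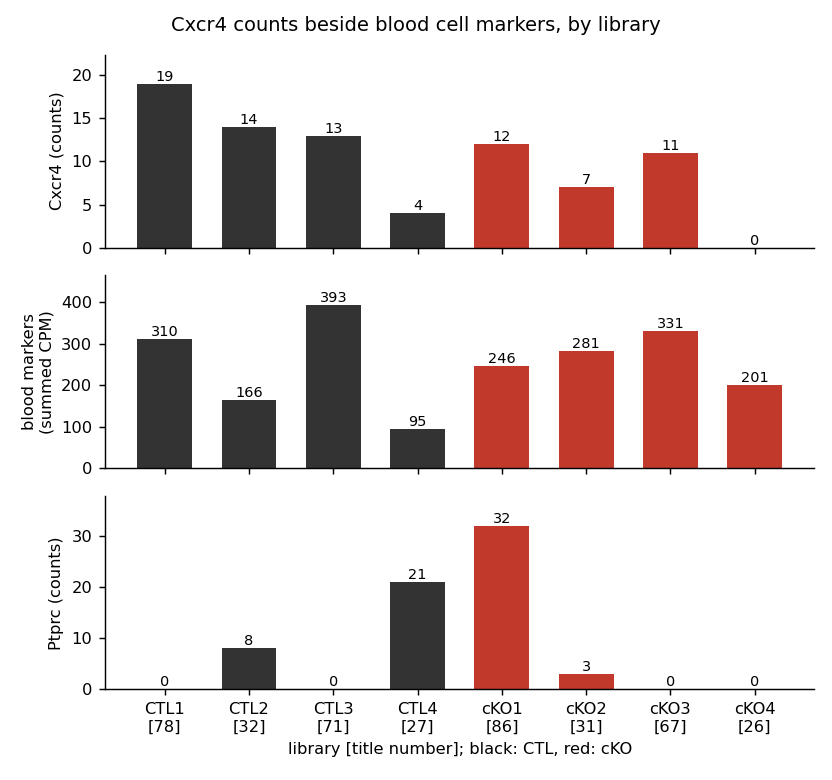
Bars give, for each of the 8 libraries (title number in brackets), the Cxcr4 counts, the summed CPM of 32 blood cell markers and the Ptprc counts, with CTL in black and cKO in red. Cxcr4 is highest in CTL1 with 19 counts and listed at 0 in cKO4, and Ptprc is at 0 in 4 of the libraries.

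The 5 genes whose log2 CPM followed that of Cxcr4 most closely over the 8 libraries, among 13424 genes whose mean was 1 CPM or more, were Ifitm2, Xpo1, Hspa1b, Pfdn2 and Notch1. Pearson's r ranged from 0.948 (Notch1) to 0.991 (Ifitm2) and Spearman's rho from 0.714 to 0.976. All 5 were more abundant than Cxcr4, and the counts of Ifitm2 lay between 12519 in cKO4 and 17334 in CTL3. These correlations rest on a gene with 0 to 19 counts per library and describe these 8 libraries only.

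The neighbors differed widely in level, and their order is given as RPKM, the CPM divided by the exon length in kilobases. Dars, with a mean of 21.7 RPKM, and Ubxn4, with 17.7 RPKM, were the highest. Their ranges over the libraries overlapped, although Dars was above Ubxn4 in 8 of 8 libraries. Rab3gap1 (4.39 RPKM) and Ccnt2 (3.76 RPKM) followed at a distance that no library bridged, and these 2 genes overlapped each other, with Rab3gap1 above Ccnt2 in 7 of 8 libraries. R3hdm1 stood at 1.46 RPKM and Zranb3 at 0.810 RPKM, with overlapping ranges. The value of R3hdm1 is lowered by an annotated exon length of 31.5 kb that includes retained introns, and by CPM, which is not corrected for length, R3hdm1 (46.1 CPM) lay close to Ccnt2 (46.4 CPM). Cxcr4 came next with 0.170 RPKM, below Zranb3 in every library, followed by Acmsd with a mean of 0.085 CPM.

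Lct and Thsd7b had no count in any library. With totals of this size, 0 counts allow a level of up to between 0.0783 and 0.0973 CPM in a library, or at most 0.0152 RPKM for Lct and 0.00799 RPKM for Thsd7b. Acmsd had 7 counts in CTL1, 16 counts in cKO2 and was listed at 0 in the other 6 libraries. Its counts thus came from 1 mouse of each genotype. The log2 fold change of Acmsd was 0.97, with a standard error of 2.19 (adjusted p = 1.00, edgeR), and it moved to 5.01 without CTL1.

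The 3 genes with the fewest counts also had the lowest CpG content of the promoter, a property not used to choose the genes. In windows of 300 bases around the RefSeq start, all 10 genes of which were matched, 7 had a CpG ratio (observed over expected) of at least 0.6. The other 3 genes were Thsd7b (0.329), Acmsd (0.152) and Lct (0.0678), and these are the 3 genes with at most 23 counts in total. Among the 20298 promoters matched to the count table, 44.6% had a ratio of at least 0.6. Of those, 80.1% belonged to genes averaging 1 CPM or more, against 22.5% of the promoters below this ratio, and 8.24% against 57.1% belonged to genes without any count. Cxcr4 is among the CpG-rich promoters (ratio 0.767) and yet had a mean of only 0.307 CPM, below the 1 CPM used for these shares. GGGCGG was found in 5 of the 10 windows (43.1% of all promoters), CCAAT in 3 (38.2% of all promoters) and TATAAA in the Cxcr4 window only (13.1% of all promoters), with both strands searched.

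The main question was whether any of these genes differs between MSPCs of CTL and cKO mice. Of the 10 genes, 8 had the 10 counts in total that were required for the test. Of these, 0 had an adjusted p under 0.05 with edgeR, where 1 of the 21310 genes tested (0.00469%) did, and also 0 had an unadjusted p under 0.05, as 4.56% of all genes did. DESeq2's Wald and likelihood ratio tests called 0 of the 8 as well, where 0.176% and 0.133% of all genes were called. In each of these tests 1 of the 8, Zranb3, had an unadjusted p under 0.05. The same held for 886 of 21027 genes in the Wald test and 839 of 21032 in the likelihood ratio test. In none of the 8 did the libraries of the genotypes separate, where 2.41% of all genes tested did. The log2 fold changes were positive for 5 and negative for 3, with a median of 0.02 beside 0.00 for all genes. The single gene called by edgeR in the whole table was G430095P16Rik on chromosome 8, which was picked for its values. It had 0 to 2 counts in CTL and 223 to 306 in cKO (adjusted p = 0.0115, edgeR).

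The narrowest limits were those of Ubxn4 and Dars. Ubxn4 had 2580, 2687, 2827 and 2829 counts in CTL1 to CTL4 and 2630, 2826, 2594 and 3476 in cKO1 to cKO4, with cKO4 above the rest. Scaled for depth, this was 82.2 ± 4.92 CPM (SD, n = 4) in CTL and 82.6 ± 5.39 CPM in cKO. The fit gave a log2 fold change of 0.01, with a standard error of 0.10 and a 95% interval from -0.21 to 0.22 (adjusted p = 1.00, edgeR), so that changes beyond a fold of 0.866 to 1.17 lie outside the interval. Ubxn4 was also the least variable of the neighbors, with a coefficient of variation of 5.81% over all 8 libraries, beside a median of 15.7% for the 9406 genes with at least 10 CPM.

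Dars, the synthetase gene next to Cxcr4 on its 3′ side among the 10, had 2858, 3193, 3320 and 3922 counts in CTL1 to CTL4 and 3112, 2854, 2799 and 3693 in cKO1 to cKO4. The levels were 99.4 ± 5.52 CPM (SD, n = 4) in CTL and 89.5 ± 7.36 CPM in cKO and overlapped between the genotypes. This corresponds to a log2 fold change of -0.15, with a standard error of 0.10 and an interval from -0.37 to 0.07 (adjusted p = 1.00, edgeR; two-sided exact permutation test over 70 assignments, p = 0.114). A difference was not detected, and the interval reaches from a fold of 0.772 to 1.05.

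Rab3gap1 had 1816, 1420, 1458 and 2226 counts in CTL1 to CTL4 and 1323, 2318, 1590 and 1931 in cKO1 to cKO4. Its mean level was 51.7 ± 8.72 CPM (SD, n = 4) in CTL and 51.3 ± 10.5 CPM in cKO, and its log2 fold change was -0.01 with a standard error of 0.17 (95% interval -0.40 to 0.37). Within each genotype the libraries of Rab3gap1 differed by more than the means of the genotypes did, and the same held for Ccnt2. Ccnt2 had 1275, 1823, 1098 and 1953 counts in CTL1 to CTL4 and 1276, 2348, 1298 and 1660 in cKO1 to cKO4, which gave 45.8 ± 9.93 CPM in CTL, 47.1 ± 13.0 CPM in cKO and a log2 fold change of 0.04 with a standard error of 0.21 (95% interval -0.43 to 0.51).

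**Figure D2:**
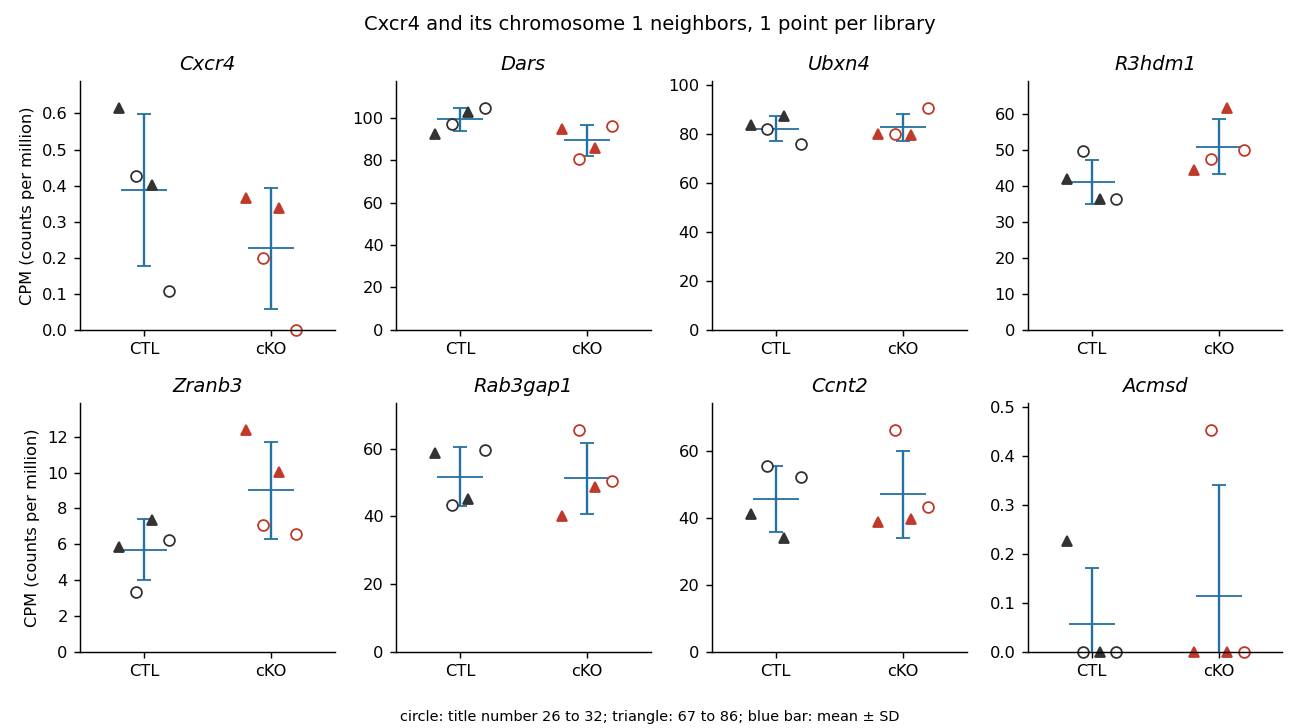
Each panel shows the level of 1 gene in CPM (linear axis from 0) for the 4 CTL libraries in black and the 4 cKO libraries in red, with the mean and SD as blue bars (SD bars that would reach below 0 are cut at the axis), circles for title numbers 26 to 32 and triangles for 67 to 86. The genotypes overlap in all 8 panels, the triangles of Ccnt2 lie below its circles, and Lct and Thsd7b are not drawn because they had no counts.

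Ccnt2 differed along another division of the libraries. The sample titles carry numbers that fall into 26 to 32 (CTL2, CTL4, cKO2, cKO4) and 67 to 86 (CTL1, CTL3, cKO1, cKO3), and the labels do not say what they stand for. Ccnt2 was at 43.3 to 66.5 CPM in the libraries with the low numbers and at 34.0 to 41.3 CPM in those with the high numbers, without overlap, as was the case for 5.62% of all genes tested. The log2 difference of high over low numbers, fitted with genotype, was -0.50 with a standard error of 0.15 (adjusted p = 0.424, edgeR). Of the 8 genes, 2 (Ccnt2 and Zranb3) had an unadjusted p under 0.05 along this division, as did 8.71% of all genes, and 0 had an adjusted p under 0.05 (0.00939% of all genes). Cxcr4 was at 0 to 0.426 CPM in the libraries with the low numbers and at 0.338 to 0.616 CPM in those with the high numbers. Its log2 difference of high over low numbers was 1.35 with a standard error of 1.21 (adjusted p = 0.770, edgeR). CTL4 and cKO4, the lowest for Cxcr4 in each genotype, both have low numbers. No difference of Ccnt2 between the genotypes appeared within either range of numbers, at a log2 value of -0.01 in 26 to 32 and 0.07 in 67 to 86.

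Zranb3 and R3hdm1 had the highest cKO to CTL ratios among the neighbors with counts in every library. The 2 genes lie head to head, Zranb3 on the minus and R3hdm1 on the plus strand, with 253 bases between their annotated starts, and the RefSeq promoter windows share 242 bases. Most of the R3hdm1 sequence printed above, with its 3 CCAAT matches, is therefore the promoter window of both genes. Per exon length, R3hdm1 had a mean of 1.46 RPKM and Zranb3 of 0.810 RPKM, with R3hdm1 higher in 8 of 8 libraries while their ranges overlapped.

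Zranb3 had 181, 109, 238 and 234 counts in CTL1 to CTL4 and 407, 249, 326 and 253 in cKO1 to cKO4. Every cKO library had more counts than every CTL library, but after scaling for depth the ranges met, with 3.32 to 7.36 CPM in CTL and 6.60 to 12.4 CPM in cKO. The means were 5.70 ± 1.71 CPM (SD, n = 4) and 9.01 ± 2.71 CPM. On the log2 scale the fold change was 0.66, with a standard error of 0.31 and a 95% interval from -0.03 to 1.35 (adjusted p = 0.848, edgeR; two-sided exact permutation test, p = 0.0857). Zranb3 was also higher in the libraries with title numbers 67 to 86, by a log2 value of 0.59 (standard error 0.25, adjusted p = 0.569, edgeR). Within the ranges of title numbers, the log2 difference between genotypes was 0.57 for 26 to 32 and 0.76 for 67 to 86. A fit that included the title number range put the log2 fold change at 0.63 with a standard error of 0.25 and an adjusted p of 0.965 in edgeR, which leaves Zranb3 uncalled.

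R3hdm1 had 1294, 1632, 1179 and 1363 counts in CTL1 to CTL4 and 1459, 1685, 2015 and 1919 in cKO1 to cKO4. Its level was 41.2 ± 6.26 CPM (SD, n = 4) in CTL and 51.0 ± 7.61 CPM in cKO, with CTL2 inside the range of the cKO libraries. The log2 fold change was 0.31, with a standard error of 0.15 and a 95% interval from -0.02 to 0.64 (adjusted p = 0.848, edgeR; two-sided exact permutation test, p = 0.0857). Within the ranges of title numbers it was 0.20 for 26 to 32 and 0.42 for 67 to 86. The libraries in which the 2 genes were high were not the same. R3hdm1 was highest in cKO3 and Zranb3 in cKO1, and over the 8 libraries the log2 CPM of both correlated with a Pearson's r of 0.11 and a Spearman's rho of 0.14, given as a description. Both genes also contain other annotated genes, among them Mir128-1 within R3hdm1, and the setting for strand in the counting is not stated.

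Outside the 10 genes, 50 further genes of the table have their 5′ end within 2000 kb of the Cxcr4 start. Of all 60, 37 had a count, 28 were tested and 0 were called by edgeR. At an unadjusted p under 0.05 there were 4, namely Mcm6, Mgat5, Gm37588 and Gm37283, beside the 4.56% of all genes given above. Of these 4, Mcm6, Mgat5 and Gm37283 had lower values in cKO, as 2.17% of all genes tested did at this p, and Gm37588 had 0 counts in CTL. The cKO libraries lay entirely below the CTL libraries for 3 of the 28, Mcm6, Mgat5 and Gm37283 (1.14% of all genes tested), and entirely above them for 0 (1.27%). Gm37588 and Gm37283 had at most 25 counts in any library. Those averaging 1 CPM or more were the 5 genes Nckap5, Mgat5, Gm37510, Mcm6 and Cd55.

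Mcm6, a subunit of the helicase that unwinds DNA for replication, lies between Lct and Dars, with its start 233 kb from that of Cxcr4. It had 905, 1232, 546 and 1439 counts in CTL1 to CTL4 and 534, 589, 408 and 436 in cKO1 to cKO4. In CPM the genotypes were apart by a small gap, with CTL3 at 16.9 CPM and cKO2 at 16.7 CPM, and the means were 30.6 ± 9.99 CPM (SD, n = 4) in CTL and 14.2 ± 2.65 CPM in cKO. Its log2 fold change was -1.11, with a standard error of 0.26 and a 95% interval from -1.68 to -0.53 (adjusted p = 0.848, edgeR). The exact permutation test gave p = 0.0286, the smallest value that 4 against 4 libraries can give. DESeq2 called Mcm6, with an adjusted p of 0.0357 in the Wald test and 0.0493 in the likelihood ratio test, where 0.176% and 0.133% of all genes were called. The log2 difference was -1.46 within title numbers 26 to 32 and -0.64 within 67 to 86. The nearest neighbors on either side, Dars and Ubxn4 (Lct had no count), were at -0.15 and 0.01 on the same log2 scale.

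Mgat5, a glycosyltransferase that branches the sugar chains of membrane proteins, lies 1387 kb from Cxcr4 beyond Acmsd. It had 706, 764, 747 and 1043 counts in CTL1 to CTL4 and 360, 549, 243 and 619 in cKO1 to cKO4, so that the genotypes did not overlap. The levels were 24.3 ± 2.41 CPM (SD, n = 4) in CTL and 12.5 ± 4.09 CPM in cKO, with a log2 fold change of -0.95, a standard error of 0.24 and a 95% interval from -1.48 to -0.42 (adjusted p = 0.848, edgeR). In DESeq2's likelihood ratio test the adjusted p was 0.100. Once the title number range was added to that test, it was 0.00488 for Mgat5 and 0.0384 for Mcm6, where 0.209% of all genes were called. In edgeR with the same term, the adjusted p was 0.747 for Mgat5 and 0.965 for Mcm6. The call of Mgat5 thus depends on both that term and DESeq2. Mgat5 was lower in cKO within both ranges of title numbers, by a log2 difference of -0.68 in 26 to 32 and -1.34 in 67 to 86. The other 3 genes, Nckap5, Gm37510 and Cd55 (an inhibitor of complement), had log2 fold changes of 0.09, 0.71 and 0.00 with standard errors of 0.59, 1.14 and 0.30. Gm37510 is annotated inside Mgat5 on the same strand, and reads of the 2 genes may not be told apart.

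**Figure D3:**
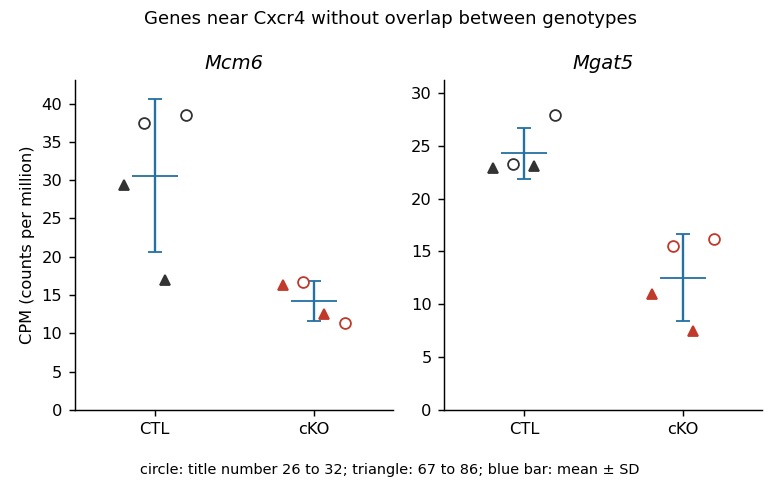
Levels of Mcm6 and Mgat5 in CPM (linear axis from 0) are shown per library, CTL in black and cKO in red, with the mean and SD as blue bars, circles for title numbers 26 to 32 and triangles for 67 to 86. All 4 cKO libraries lie below the 4 CTL libraries for both genes, narrowly so for Mcm6.

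**Figure D4:**
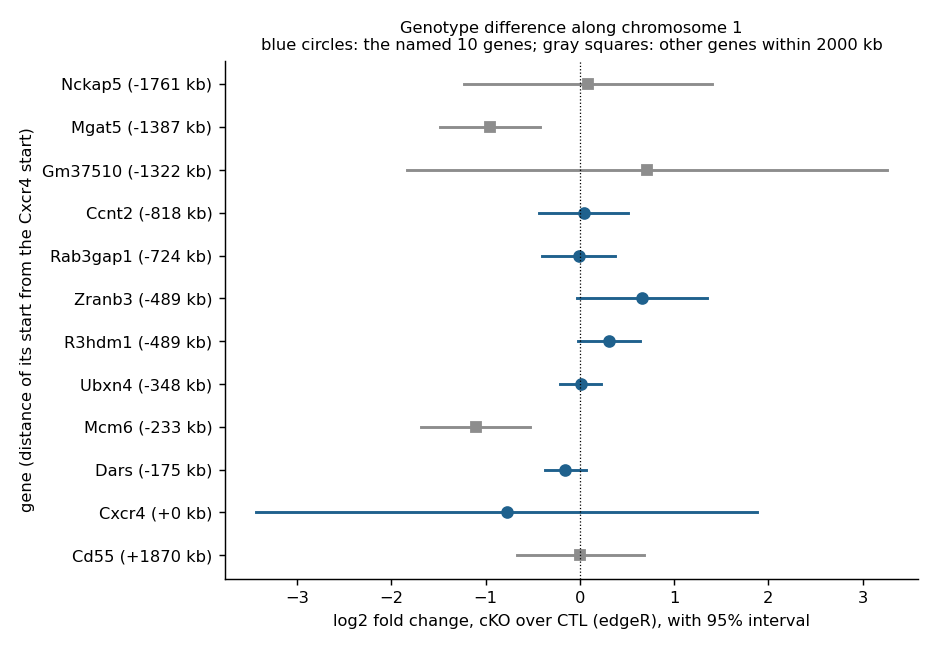
Points give edgeR's log2 fold change of cKO over CTL with its 95% interval for genes in their order along chromosome 1, with the distance of each start from the Cxcr4 start in kb, blue circles for the 10 genes chosen and gray squares for other genes within 2000 kb that averaged 1 CPM or more. The intervals of the blue circles all include 0, those of Mcm6 (-1.68 to -0.53) and Mgat5 (-1.48 to -0.42) do not, and Acmsd is left out for its few counts.

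The genes through which CXCR4 acts and is regulated were taken as a list of 19. All 19 had a count, 18 were tested and 0 were called, where 0.00469% of all genes tested were. None had an unadjusted p under 0.05 (4.56% of all genes tested) or separated between the genotypes (2.41% of all genes tested). A count of 0 among 18 genes is near these shares. The median log2 fold change of the list was 0.01. Cxcl12, the ligand, stood at 44629 ± 4373 CPM (SD, n = 4) in CTL and 44780 ± 4455 CPM in cKO, with a log2 fold change of 0.00 and a standard error of 0.09. The second receptor of CXCL12, Ackr3, was sparser than Cxcr4 (a mean of 0.034 RPKM, with counts in 3 of 8 libraries), with 0 to 17 counts in CTL and 0 to 5 in cKO. The G protein subunits Gnai1, Gnai2 and Gnai3 were at 189 ± 10.8, 452 ± 48.2 and 174 ± 13.0 CPM in CTL. Their log2 fold changes of cKO over CTL lay between -0.04 and 0.02, with standard errors from 0.09 to 0.11. Along the title numbers, Cxcl12 was at 39432 to 43910 CPM in 26 to 32 and at 44685 to 50662 CPM in 67 to 86. This log2 difference of high over low numbers was 0.20 with a standard error of 0.06 (adjusted p = 0.433, edgeR). Gnai2, Stam and Rgs2 were likewise apart along this division (5.62% of all genes tested), and the other genes of the list overlapped. Among the genes that turn the receptor off, the arrestin Arrb1 was at 41.6 ± 12.0 CPM in CTL and 21.1 ± 19.8 CPM in cKO (log2 fold change -0.98, standard error 0.61, adjusted p = 0.983, edgeR), with cKO counts from 127 to 1568. This value of Arrb1 moved to -0.64 without cKO1 and to -1.78 without cKO3, and it was -1.54 with the replicate block (adjusted p = 1.00, edgeR). Its partner Arrb2 was at 0.31 with a standard error of 0.23, and Itch, the ubiquitin ligase that marks CXCR4 for degradation, at 0.18 with a standard error of 0.10 (adjusted p = 0.848, edgeR). The G protein regulator Rgs16 ranged from 229 to 8236 counts over the libraries, and Rgs1 had 0 to 7 counts and was not tested.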

How the data were processed

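RNA-seq libraries of MSPCs from 4 CTL and 4 cKO mice were analysed, 1 mouse per library. According to the study's methods and the submitters' processing notes, the authors trimmed the paired reads, aligned them to GRCm38 (mm10) with HISAT2 and counted them per gene with HTSeq (versions and strand setting not given in the sources used here), and they deposited raw counts without normalization for 52636 genes. Of these, 52403 were matched to a symbol and 52489 to a position in GENCODE M21 by Ensembl identifier without its version, a release other than the one the methods name. Of the 39333 deposited values from 1 to 20, 58.6% were odd, which is unusual for read counts, so a 0 is reported as listed at 0.

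CPM were computed with TMM scaling, and RPKM as CPM per kilobase of merged exons. Genes with at least 10 counts over all libraries were tested with edgeR 4.0.16 (glmQLFit, glmQLFTest) in R 4.3.3 without covariates, with Benjamini-Hochberg adjustment over all 21310 genes and a threshold of 0.05. Log2 CPM used a prior count of 2. The methods name a batch correction without naming the batch, so that a title number term was tried as an alternative, beside other scalings, other filters, DESeq2 1.42.0, limma 3.58.1 (voom), the replicate number as a block and each library left out. The scripts were tested on simulated data. Total counts were 31047344 to 37682465 in CTL and 32724428 to 38216877 in cKO. The 10 genes, the lists and the tests were chosen with earlier results of these data known. Named genes are the 10 genes, genes with a 5′ end within 2000 kb of the Cxcr4 start and a mean of at least 1 CPM, the 19 pathway genes, the 5 genes most correlated with Cxcr4 and Flt3. Gm37588, Gm37283, G430095P16Rik, Igha, Igkc and the Mcm genes other than Mcm6 were picked after their values were seen. Promoter sequences are from RefSeq (250 bases before to 50 after the start), and all 10 genes were matched.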

Additional observations from a re-analysis of the deposited data

Results flagged for a closer look

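In 32 groups of 4 libraries examined, each gene in each genotype, the highest or lowest library stood apart from the rest by Dixon's ratio of gap to range at the 95% level in 5, where chance alone gives about 1.6 at 5%. Ubxn4 was high in cKO4 (90.7 CPM, the other cKO libraries 79.7 to 80.0 CPM, ratio 0.965). Ccnt2 was high in cKO2 (66.5 CPM, the others 38.8 to 43.3 CPM, ratio 0.838). Mgat5 was high in CTL4 (27.9 CPM, the others 22.9 to 23.3 CPM, ratio 0.926). Acmsd was listed at 0 in all but 1 library of each genotype, which fixes the ratio at 1.00 in CTL and 1.00 in cKO. Both Acmsd groups were thus set by the zeros, and the chance figure of 1.6 does not allow for such groups.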

How the results depend on the processing

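Over the 19 alternatives to the analysis as reported, the number of the 10 genes called stayed at 0. Cxcr4, Dars, R3hdm1, Zranb3, Mgat5 and Mcm6 kept their direction in every fit that gave a value for them. The number of genes called in the whole table, 1 as reported, was 37 with DESeq2's Wald test, 28 with its likelihood ratio test, 42 when that test included the title number range, 0 with a count above 0 required in every library and 0 to 1 with 1 library left out. Near Cxcr4 these DESeq2 tests called 1, 1 and 2 genes (Mcm6, Mcm6, and Mcm6 with Mgat5), and the cause was not tested.

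The replicate block called 0 genes. Same-numbered libraries of the genotypes deviated together with correlations from -0.0020 to 0.101, and 3 of 4 numbers matched best with their own. The libraries of number 4 matched best with cKO2 and CTL2, which have title numbers in the same range. Same-numbered libraries also share a range of title numbers, which the matching did not take into account. The titles number the replicates without calling them pairs, and these low correlations do not settle whether they are. The main fit holds no term for them. Values near 0 changed sign. Leaving out single libraries moved Ubxn4 between -0.035 and 0.042, Rab3gap1 between -0.15 and 0.088, Ccnt2 between -0.17 and 0.15, Nckap5 between -0.64 and 0.37 and Cd55 between -0.19 and 0.24 on the log2 scale. Nckap5 was at -0.075 in the DESeq2 test that included the title number range, -0.055 with limma-voom, -0.075 with the title number range in edgeR and -0.067 with the replicate block, Cd55 at -0.024, -0.039, -0.023 and -0.015 in the same 4 fits, and Gm37510 at -0.38 with limma-voom. With 1 library left out, the log2 fold change of Cxcr4 lay between -1.11 (without cKO1) and -0.36 (without cKO4), and it was -1.32 with limma-voom and -1.26 with the replicate block. Acmsd, counted in 2 libraries, was at 1.56 within title numbers 26 to 32 and -1.14 within 67 to 86. The sign also differed between these ranges, in the same order, for Ubxn4 (0.11 and -0.099), Rab3gap1 (0.18 and -0.22) and Nckap5 (0.17 and -0.32). The same held for Gm37510 (2.26 and -2.46) and Cd55 (-0.26 and 0.23). Depth limits Cxcr4, Acmsd, Lct and Thsd7b.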

Other observations

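The hexameric replicative helicase of which Mcm6 is a subunit has 5 other subunits, whose genes lie elsewhere in the genome and were looked up after the values of Mcm6 were seen. Their log2 fold changes of cKO over CTL lay between -0.11 (Mcm3) and 0.17 (Mcm7), with 2 of the 5 below 0 and 0 at an unadjusted p under 0.05 in edgeR. In CPM, which is not corrected for length, Mcm4 was the highest of them, at 68.1 ± 6.99 (SD, n = 4) in CTL and 68.5 ± 1.80 in cKO. Mcm7 followed with 36.0 ± 3.88 and 40.5 ± 6.37 CPM. Lower values were those of Mcm2 (13.5 ± 4.83 and 14.0 ± 3.18 CPM), Mcm3 (16.2 ± 6.25 and 15.1 ± 2.03 CPM) and Mcm5 (13.2 ± 4.70 and 12.9 ± 3.88 CPM). Mcm6 itself was at 30.6 ± 9.99 CPM in CTL and 14.2 ± 2.65 CPM in cKO. The difference between Mcm6 and the other subunits was not tested.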
